A study of Xenopus laevis with 5 samples.

Results

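The proteasome subunits described here are the genes whose symbols begin with psma, psmb, psmc, psmd, psme or psmg, without psmc3ip. They were found through the accession that the array design gives each probe, looked up in RefSeq's gene table of Xenopus laevis. Of 83 gene copies in that table with such a symbol, 56 had a named probe on the array, out of 10007 named gene copies in all. They carried 92 of the 43653 gene probes and stood for 42 subunit names. No named probe was found for psmb5, psmb11, psmd5, psmd11 or psmg4.

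The proteasome is the protease complex that degrades proteins tagged with ubiquitin. Its barrel-shaped core is made of rings of alpha subunits, which form the gate, around rings of beta subunits, some of which cut the peptide chain. A regulatory particle of ATPase and non-ATPase subunits binds, deubiquitinates and unfolds the substrate, and alternative activators can take its place at the end of the core. In immune cells, and after interferon, immune-type beta subunits replace their constitutive counterparts in newly built cores. In testis, protein breakdown by the proteasome accompanies meiosis and the remodelling of sperm cells in vertebrates.

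The samples were whole-testis RNA from males of the African clawed frog, Xenopus laevis, exposed to simazine at 100 µg/L (3 samples) or kept at 0 µg/L (2 control samples). Exposure began in tadpoles at NF stage 46, a stage of the Nieuwkoop and Faber table, and lasted 90 days. Simazine is a chlorotriazine herbicide, and the comparison asks which genes differ in expression in exposed males. The labels name no strain and do not say that the testes came from separate animals, so p-values reflect only sample-to-sample spread, part of which could be technical. In a whole testis, fewer cells of a type and less RNA per cell cannot be told apart.

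Each sample was hybridised to a one-colour Agilent array, and values are log2 signals relative to the 75th percentile of the array's gene spots, a scale on which 0 is that percentile. Marks of non-uniform or outlier spots were set by the scanner software on 5.78% to 42.6% of gene spots on the simazine arrays and on 10% and 44.0% on the control arrays. The highly marked arrays were simazine 2 and control 1, which were scanned on 1 day (scan 1), while simazine 1, simazine 3 and control 2 were scanned on another (scan 2). Areas of the arrays with a shared local deviation were left out, which removed 25.5% of gene spots, and 26996 probes were tested. Markers of sperm and Sertoli cells were present in both groups, as the label testis requires: 11 spermatid and sperm genes were well above background on every array, and their summed level was 90.4 to 179 in simazine samples and 86.2 to 157 in control samples, in units of the array's 75th percentile. Oocyte markers differed. Of 18 tested, 13 were lower in simazine samples at an adjusted p under 0.05 (limma), with a summed level of 5.21 to 6.67 in simazine samples against 44.5 to 54.3 in control samples.

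Proteasome transcripts were readily measured in all samples. Of the 92 probes, 91 (98.9%) were well above background on all 5 arrays, a state reached by 65.5% of all gene probes. The exception was probe 2 of psma5.S, an alpha-ring subunit, which reached it on simazine 2 and control 1. Here the probes of a gene copy are numbered by their mean signal over the 5 arrays, and .L and .S name the copies on the long and the short chromosome of the frog's duplicated genome. The scanner marks were more frequent among the members than over the array. On simazine 1, 2 and 3, 30, 63 and 25 of the 92 probes were marked (32.6%, 68.5% and 27.2%). Of all gene spots 9.59%, 42.6% and 5.78% were marked there. On control 1 and 2, 67 and 35 of the 92 probes were marked (72.8% and 38%), against 44.0% and 10% of gene spots. Marked spots were kept unless stated otherwise. Of the 92 probes, 19 (20.7%) lay in distorted areas, which left 73 tested probes for 48 gene copies and 38 subunit names.

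No proteasome probe passed an adjusted p of 0.05 between simazine and control (0 of 73, limma with Benjamini-Hochberg adjustment over all tested probes). Over all tested probes 0.4% passed, 0.0148% (4 probes) higher and 0.385% (104 probes) lower in simazine samples. At an unadjusted p under 0.05, 1 member probe (1.37%) was left, against 3.85% of all probes. The median log2 difference of the members was 0.00, against 0.03 over all probes, and their middle 50% lay between -0.15 and 0.26, against -0.21 and 0.29. Of the 73 differences, 37 were above 0, and 64 were smaller than 0.5 in size. The differences reached -0.72 at the lowest and 1.5 at the highest, and 4 (5.48%) were 1 or more in size, against 6.18% of all probes. These 4 were psmd8.L, a lid subunit of the regulatory particle, the alpha-ring subunits psma2.L and psma4.L, and the activator subunit psme2.L. In the fit with the scan as a second term, given below, their differences were 1.35, 0.58, 0.43 and 0.27.

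The precision of the members' differences was limited in the first fit, which did not include the scan. The median standard error of a member's difference was 0.44 on the log2 scale, against 0.42 over all probes. The 95% interval of the difference lay wholly between -1 and 1 for 17 of the 73 probes, and wholly between -2 and 2 for 60. For the other probes the interval reached a 2-fold difference or more in at least 1 direction, so a change of that size was not excluded there by this interval. Intervals with the scan as a second term were not counted. In that fit the standard error of psma4.L was 0.17 in place of 1.5, while that of psma7.S was 0.58 in place of 0.57. Taken by gene copy, with the brightest probe for each, 22 of 48 differences were above 0, with a median of -0.03, against -0.00 over 8089 named gene copies.

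**Figure D1:**
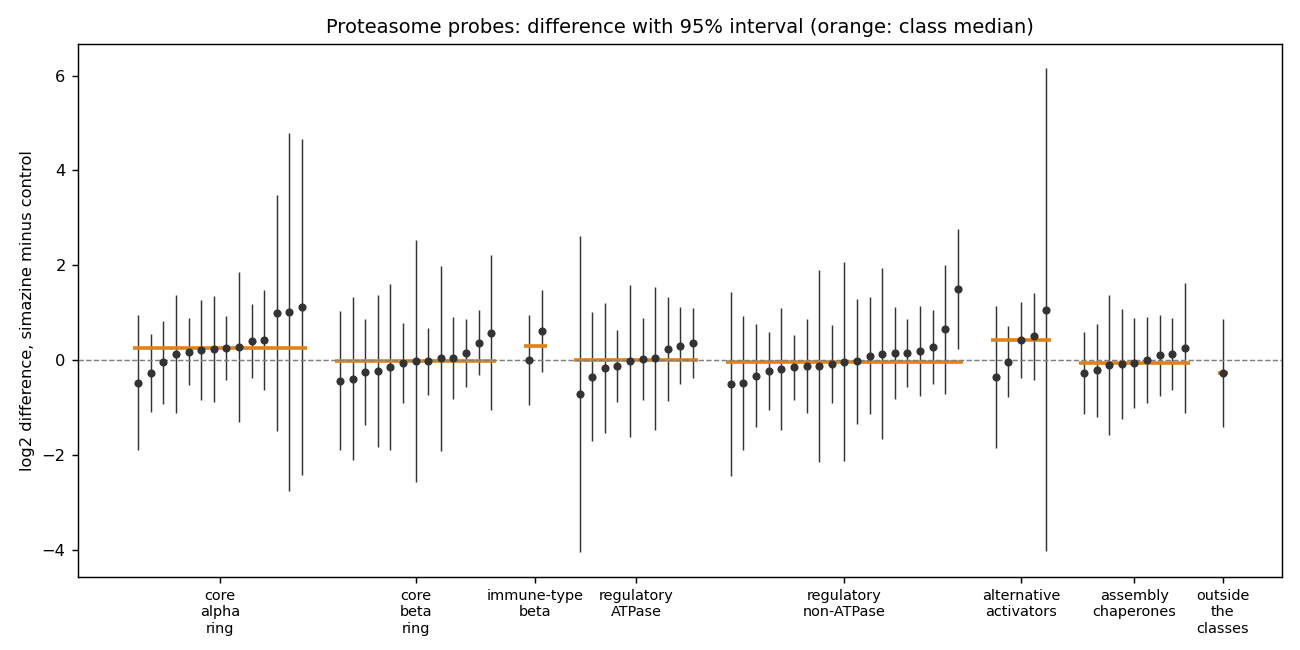
Log2 difference, simazine minus control, of the 73 tested proteasome probes (points, y axis) with 95% intervals from limma (vertical lines), ordered within each class of subunit (x axis), with class medians in orange. Most points lie within 0.5 of the dashed line at 0, and the intervals are widest for a few alpha-ring, beta-ring and ATPase probes and for psme2.L.

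Among the tested probes, complete separation of the groups was about as frequent upwards as over the array and was not seen downwards. In 6 of 73 probes (8.22%) each simazine value was above both control values, against 7.5% of all tested probes. In 0 of 73 each simazine value was below both control values, against 6.85% of all tested probes. Of the members left out for distorted areas, psmc1.L, probe 2 of psmd3.S and probe 3 of psmg1.L separated downwards, and psme1.S separated upwards. The 6 probes belonged to psma3.S, psmb1.S, psmb2.S, psmb8.L, psmc4.L and psmd8.L, which are named here after their values were seen. Their differences ran from 0.14 for psmb2.S to 1.5 for psmd8.L.

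As over the whole array, the members' levels differed between the scans more often than between the doses. In a fit with the scan as a second term, 32 of 73 probes (43.8%) differed between scan 2 and scan 1 at an adjusted p under 0.05, against 32.8% of all tested probes (limma). This test was added after the values were seen. Among them, 8 (11%) were higher in scan 2, against 14.8% of all probes, and 24 (32.9%) were lower in scan 2, against 18% of all probes. The median scan 2 minus scan 1 difference was -0.47 for the members and -0.12 over all probes. The scan difference was larger in size than the simazine difference in 58 of the 73 (79.5%), against 74.3% of all probes. Relative to each probe's 5-array mean, the median of the members was -0.15, 0.31 and -0.20 on simazine 1, 2 and 3 and 0.18 and -0.23 on control 1 and 2. The arrays of scan 1 thus stood highest in both groups.

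**Figure D2:**
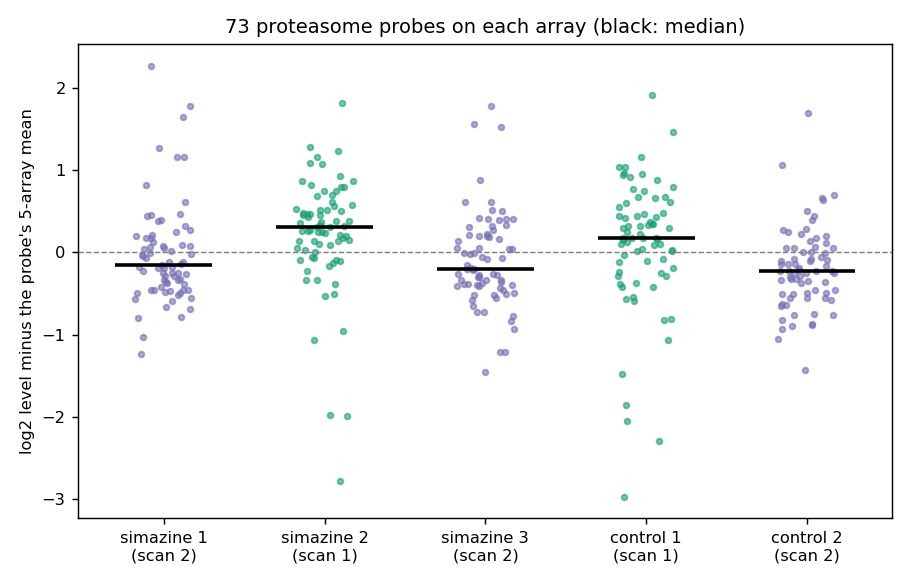
Log2 level of each of the 73 tested proteasome probes minus its own 5-array mean (points, y axis) on the 3 simazine and 2 control arrays (x axis), coloured by scan, with the median of each array as a black bar. The medians are above 0 on simazine 2 and control 1 (scan 1) and below 0 on simazine 1, simazine 3 and control 2 (scan 2).

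With the scan in the model, again 0 of 73 member probes passed an adjusted p of 0.05 for simazine, against 0.956% of all probes (limma). In either direction, 5 of 73 members (6.85%) were under an unadjusted p of 0.05, a smaller share than the 2957 of 26996 probes over the array (limma). None of the 5 members was lower in simazine samples. All 5 were higher, against 5.77% of all probes that were higher at this p. They were psmd8.L at 1.35, psma3.S (probe 2) at 0.62, psme1.L (probe 2) at 0.59, psmb8.L at 0.52 and psma5.S (probe 1) at 0.51 on the log2 scale. The smallest adjusted p among all members in this fit was 0.211, that of psmd8.L. The median difference of the members was 0.10 in this fit, against 0.05 over all probes. Within scan 1, which holds 1 array per group, it was 0.08 (0.09 over all probes), and within scan 2 it was 0.15 (0.03 over all probes). The difference had the same sign within both scans in 45 probes (61.6%), against 60.4% of all probes. Of these 45, 35 were higher and 10 lower in simazine. The same split was not computed over all probes, so no background share stands beside it. The median over all probes was also above 0 within both scans.

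**Figure D3:**
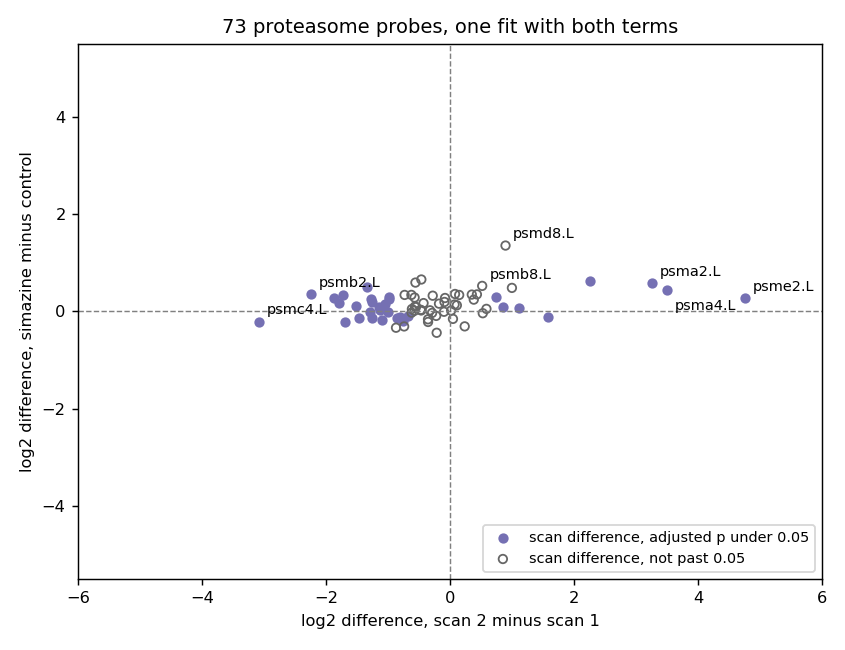
Log2 difference between scans (x axis, scan 2 minus scan 1) and between groups (y axis, simazine minus control) from one fit with both terms, for the 73 tested proteasome probes, with filled points where the scan difference passed an adjusted p of 0.05. The points spread widely along the x axis, to 4.75 for psme2.L, and stay near 0 on the y axis, where psmd8.L is highest at 1.35.

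The alpha ring, which gates the core, was covered by 16 probes for 11 gene copies, of which 14 probes were tested. Their median difference was 0.25, with 11 above 0 and 3 below, and none passed the threshold. The highest was probe 2 of psma2.L, with -0.65, -4.42 and -0.91 in simazine 1, 2 and 3 against -4.49 and -1.74 in control 1 and 2. Low values stood on both arrays of scan 1, and the groups overlapped. The difference was 1.12 ± 1.41 (SE), with a 95% interval of -2.42 to 4.67, while the scan difference of this probe was 3.26. With the scan in the model the simazine difference was 0.58 ± 0.27 (SE). Probe 1 of psma2.L was far brighter, with a mean over the 5 arrays of 5.64 against -2.44, but lay in a distorted area. With distorted areas kept, the difference of probe 1 was 0.19 ± 0.42 (SE). The lowest was psma7.S, whose product belongs to the same ring, with 5.61, 5.33 and 3.94 in simazine samples against 5.32 and 5.55 in control samples. Simazine 3 alone stood apart, and the difference was -0.48 ± 0.57 (SE).

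Probes of other alpha subunits with the same kind of scan pattern were psma4.L and probe 2 of psma3.S. The values of psma4.L were 1.33, -2.32 and 1.24 in simazine samples and -2.62 and 0.74 in control samples. Within each group the array of scan 1 was the low one, and the difference was 1.02 ± 1.5 (SE). With the scan in the model the difference of psma4.L was 0.43 ± 0.17 (SE). Its short-chromosome copy psma4.S measured 5.71, 4.83 and 5.73 in simazine samples and 4.79 and 5.58 in control samples, a difference of 0.24 ± 0.45 (SE). For probe 1 of psma3.S the simazine values, 2.52, 2.55 and 2.43, were all above the control values, 2.29 and 2.19. The difference of 0.26 ± 0.27 (SE) was no larger than its error.

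The constitutive beta ring had 16 probes for 8 gene copies, with 13 probes tested, a median difference of -0.03, and 5 above and 8 below 0. Of the catalytic subunits, which cut after different kinds of residue, psmb6 and psmb7 were measured. The brighter probe of psmb6.L had 3.38, 4.66 and 3.0 in simazine samples and 4.81 and 3.33 in control samples. Values were high on both scan 1 arrays, and the difference was -0.39 ± 0.68 (SE). For probe 1 of psmb6.S the values were 2.42, 3.84 and 2.48 in simazine samples and 3.92 and 2.21 in control samples, with the same scan pattern and a difference of -0.15 ± 0.70 (SE). With the scan in the model the differences of these probes were -0.14 ± 0.20 (SE) for psmb6.L and 0.10 ± 0.17 (SE) for psmb6.S.

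The probes of psmb7.S gave both the highest and the lowest difference of the beta ring. Probe 1 read 4.42, 4.95 and 3.12 in simazine samples and 4.68 and 4.52 in control samples, a difference of -0.43 ± 0.58 (SE). Probe 2 read 3.75, 2.84 and 1.86 in simazine samples and 2.76 and 1.71 in control samples, a difference of 0.58 ± 0.65 (SE). Probe 3 read 1.15, 3.06 and 1.31 in simazine samples and 2.59 and 1.01 in control samples, a difference of 0.04 ± 0.78 (SE). With the scan in the model the differences of probes 1, 2 and 3 were -0.31 ± 0.50, 0.66 ± 0.66 and 0.33 ± 0.17 (SE). The signs of these probes of one gene copy differed and the groups overlapped in all of them, so no direction can be given for psmb7.S. The structural subunit psmb3.S was measured with less spread than these. Its probe 2 had 5.39, 5.42 and 5.12 in simazine samples and 5.34 and 5.33 in control samples, a difference of -0.02 ± 0.28 (SE). The values of psmb1.S were -2.34, -2.53 and -2.35 in simazine samples, all above the -2.75 and -2.81 of control samples, and the difference of 0.37 ± 0.27 (SE) did not pass the test.

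Of the immune-type beta subunits, which shift the cleavage pattern towards peptides that fit MHC class I, psmb8.L and psmb9.S were measured, with 1 probe each. The values of psmb8.L were 2.33, 1.74 and 2.29 in simazine samples and 1.29 and 1.73 in control samples. All simazine values were above both control values, by a narrow margin for simazine 2 over control 2. The difference was 0.61 ± 0.34 (SE), a fold of 1.53 with a 95% interval of 0.840 to 2.77, at an unadjusted p of 0.131 and an adjusted p of 1.00 (limma). It was 0.46 within scan 1 and 0.58 within scan 2. With the scan in the model it was 0.52 ± 0.16 (SE), with an unadjusted p of 0.0253 and an adjusted p of 0.356 (limma). The values of psmb9.S were -0.35, -0.01 and -0.79 in simazine samples and -0.09 and -0.68 in control samples. The groups overlapped, with a difference of 0.00 ± 0.38 (SE) and a 95% interval of -0.95 to 0.95.

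**Figure D4:**
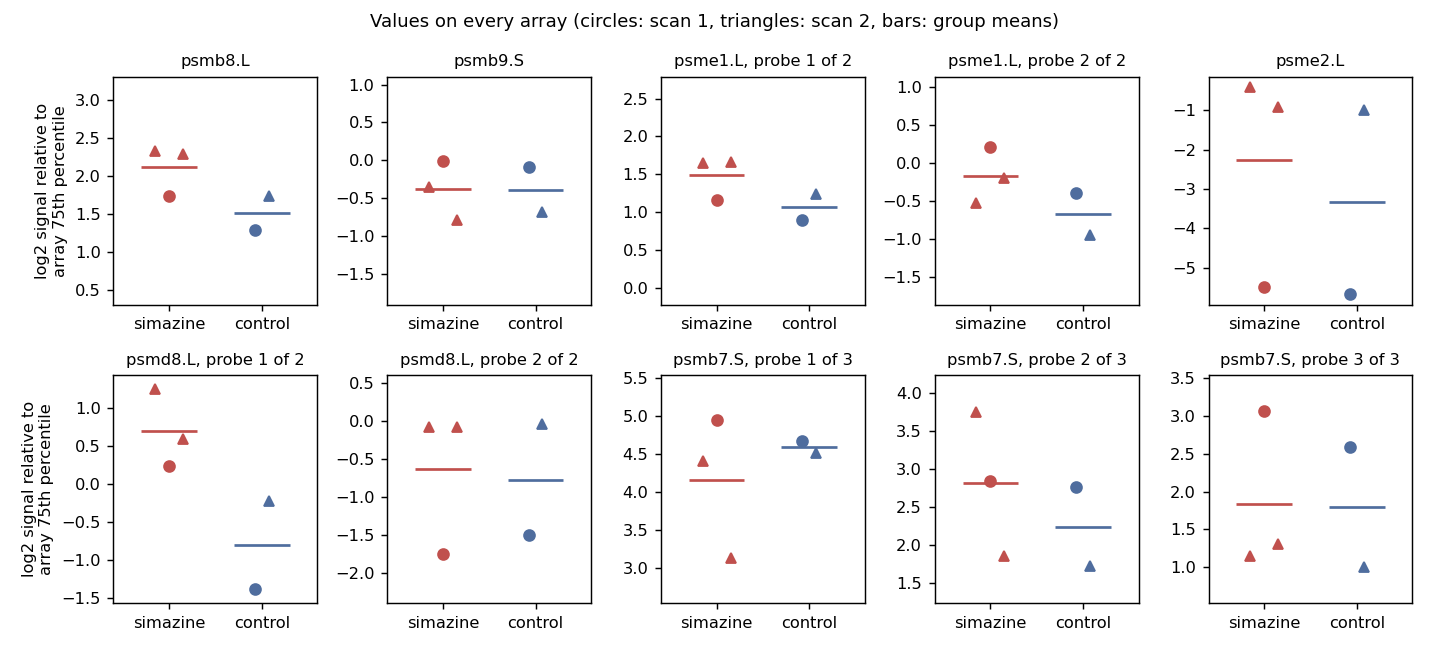
Log2 signal relative to the array's 75th percentile (y axis) on every array for immune-type and activator subunits, psmd8.L and psmb7.S, with circles for scan 1, triangles for scan 2 and bars for group means of 3 simazine and 2 control samples. The simazine values are all above the control values for psmb8.L and for probe 1 of psmd8.L, while psme2.L and probe 2 of psmd8.L separate by scan.

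The ATPases of the regulatory particle, which unfold the substrate, had 13 probes for 7 gene copies. The 10 tested probes had a median difference of -0.00, with 5 above and 5 below 0. Different probes of psmc4.L gave both extremes. Probe 2 had 1.73, 4.78 and 1.5 in simazine samples and 4.87 and 1.91 in control samples. Its high values were those of scan 1, and the difference was -0.72 ± 1.33 (SE) with a scan difference of -3.08. With the scan in the model the simazine difference of this probe was -0.21 ± 0.18 (SE). Probe 4 had -3.17, -3.19 and -2.79 in simazine samples, above the -3.44 and -3.38 of control samples, a difference of 0.36 ± 0.29 (SE). Probe 1, the brightest, had 3.86, 5.03 and 3.93 in simazine samples and 5.0 and 3.88 in control samples, a difference of -0.17 ± 0.55 (SE). With the scan in the model the difference of probe 1 was 0.02 ± 0.16 (SE). The probes of this copy differed in sign, and none passed the threshold. For psmc2.L, another ATPase, the values were 4.80, 5.01 and 4.48 in simazine samples and 4.91 and 4.88 in control samples, a difference of -0.13 ± 0.30 (SE).

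The non-ATPase subunits form the base scaffold and the lid, where the deubiquitinase psmd14 sits, and had 25 probes for 15 gene copies. Their 19 tested probes had a median difference of -0.03, with 8 above and 11 below 0. Probe 1 of psmd8.L, which codes for a lid subunit, had the largest difference of all members and was the one probe under an unadjusted p of 0.05. Its values were 1.25, 0.24 and 0.59 in simazine samples and -1.39 and -0.22 in control samples. All simazine values were above both control values. The difference was 1.5 ± 0.50 (SE), a fold of 2.83 with a 95% interval of 1.18 to 6.81, at an unadjusted p of 0.0278 and an adjusted p of 1.00 (limma). It was 1.63 within scan 1 and 1.15 within scan 2, and it was 0.92 without control 1, the lowest of the 5 samples.

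The other probe of psmd8.L did not show this difference. Probe 2 had -0.07, -1.75 and -0.07 in simazine samples and -1.5 and -0.04 in control samples. Its low values were those of scan 1, and the groups overlapped. The difference was 0.14 ± 0.72 (SE), and within the scans it was -0.25 and -0.03. This probe was spotted 4 times on each array, and the 2 spots outside distorted areas were averaged. The gap of 1.36 between both probes was the widest among the 21 gene copies with several tested probes, whose median gap was 0.29. Which of the probes follows the transcript was not tested.

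Other non-ATPase subunits gave smaller differences, with wide errors for some of them. The lowest was that of probe 2 of psmd1.S, from a scaffold subunit of the base, with 1.86, 3.39 and 1.52 in simazine samples against 3.61 and 1.89 in control samples. Scan 1 arrays were high in both groups, and the difference was -0.50 ± 0.77 (SE). With the scan in the model it was -0.21 ± 0.19 (SE). The long-chromosome copy psmd1.L had 1.90, 3.98 and 2.19 in simazine samples and 3.62 and 1.83 in control samples, a difference of -0.03 ± 0.84 (SE). With the scan in the model the difference of psmd1.L was 0.28 ± 0.18 (SE). For psmd14.L the values were 3.21, 3.41 and 2.76 in simazine samples and 3.26 and 3.15 in control samples, a difference of -0.08 ± 0.32 (SE). For psmd4.S (probe 1), a ubiquitin receptor, they were 2.43, 2.48 and 2.28 in simazine samples and 2.08 and 2.41 in control samples, a difference of 0.15 ± 0.28 (SE).

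Alternative activators open the gate of the core without ATP. They had 7 probes for 5 gene copies, with 5 probes tested, a median difference of 0.42, and 3 above and 2 below 0. Of psme1 and psme2, a pair induced by interferon in mammals, psme1.L was measured by a pair of probes. Probe 1 of psme1.L had 1.65, 1.17 and 1.66 in simazine samples and 0.90 and 1.25 in control samples, a difference of 0.42 ± 0.32 (SE). Probe 2 of psme1.L had -0.52, 0.21 and -0.20 in simazine samples and -0.40 and -0.95 in control samples, a difference of 0.50 ± 0.37 (SE). In both probes simazine was higher within each scan, but the groups overlapped. The values of psme2.L were -0.42, -5.48 and -0.91 in simazine samples and -5.67 and -1.0 in control samples. This was the widest scan difference among the members, 4.75 ± 0.22 (SE) with an adjusted p of 0.00499 (limma). The simazine difference of psme2.L was 1.07 ± 2.03 (SE) without the scan in the model and 0.27 ± 0.22 (SE) with it.

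The activators of the nucleus did not separate the groups. The tested probe of psme3.L had 0.44, 1.81 and 0.36 in simazine samples and 1.75 and 0.69 in control samples, a difference of -0.36 ± 0.60 (SE). The activator psme4, which in mouse is needed for normal sperm formation, was measured as psme4.L. It had 2.02, 2.41 and 2.13 in simazine samples and 2.38 and 2.06 in control samples. With a difference of -0.03 ± 0.30 (SE) and a 95% interval of -0.79 to 0.72, this was one of the more tightly measured members.

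Assembly chaperones, which build the core (psmg) and the base of the regulatory particle (psmd9 and psmd10), had 11 probes for 6 gene copies. Their 9 tested probes had a median difference of -0.05, with 3 above and 6 below 0, and spanned the narrowest range among classes with more than 2 tested probes, -0.27 to 0.26. Both ends were probes of psmd9.S. Probe 1 of psmd9.S had 5.84, 5.58 and 5.27 in simazine samples and 5.55 and 6.12 in control samples, a difference of -0.27 ± 0.35 (SE). Probe 2 of psmd9.S had 0.14, -0.84 and 0.10 in simazine samples and -1.12 and 0.20 in control samples, a difference of 0.26 ± 0.55 (SE). Outside the classes the rule also took psme3ip1.S, named for a protein that interacts with psme3, at -0.27 ± 0.46 (SE), and psmb7.2.L, whose probe lay in a distorted area.

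The gaps between copies or probes of one subunit were about as large as the members' differences, whose median size was 0.22. Among the 10 subunits with a tested probe for both chromosome copies, the median gap between the copies was 0.23 and the widest 0.78, that of psma4. Among the 21 gene copies with several tested probes, 9 had probes of opposite sign. Gaps over 1 were found in 3 of them, psmb7.S, psmc4.L and psmd8.L.

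Members in distorted areas held some larger differences, which are given without the filter and were not tested with it. The single probe of psmc1.L, an ATPase, had 2.45, 0.81 and 0.39 in simazine samples and 3.93 and 4.86 in control samples. The groups did not overlap, and the unfiltered difference was -3.18 ± 0.72 (SE), with an adjusted p of 0.153 (limma). The median deviation of the spots around it was 0.21, -1.95 and -1.54 on simazine 1, 2 and 3 and 0.10 and 0.44 on control 1 and 2. Its neighbours were thus low on simazine 2 and 3 but not on simazine 1, where the probe was also below both control values. The part of the distortion in this difference was not tested. Probe 2 of psmd3.S, a lid subunit, had -2.86, -2.15 and -3.12 in simazine samples and -0.93 and -1.61 in control samples, an unfiltered difference of -1.44 ± 0.44 (SE). Its neighbours deviated by 0.00, -0.16 and -0.49 on the simazine arrays and by 1.36 and 1.67 on the control arrays, and the other psmd3.S probe gave 0.09. The values of psme1.S were 2.74, 1.76 and 2.06 in simazine samples and 1.06 and 1.75 in control samples, an unfiltered difference of 0.78 ± 0.44 (SE). Around psme1.S the neighbours deviated by 0.61, 0.00 and 0.15 on the simazine arrays and by -0.52 and 0.00 on the control arrays. They were thus high on simazine 1 and low on control 1, as the probe was. Other unfiltered differences were 1.21 ± 0.61 (SE) for probe 2 of psmd10.L and -0.93 ± 0.67 (SE) for probe 2 of psmd14.S. Probe 3 of psmg1.L was at -0.84 ± 0.47 (SE), with all simazine values below both control values. Without the filter 0 of 92 member probes passed an adjusted p of 0.05, against 1.02% of all probes, and 3 were under an unadjusted p of 0.05, against 8.71% of all probes (limma).

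With marked spots left out and no filter on position, 58 member probes could be tested. None of the 58 passed an adjusted p of 0.05, against 0.00314% of all probes, and none was under an unadjusted p of 0.05, against 8.5% of all probes (limma). The median difference was 0.22, against 0.10 over all probes. For probe 1 of psmd8.L the difference was then 1.15. This probe was marked on simazine 2 and control 1, so the value is the difference within scan 2 given above, with control 2 as the only control sample. Values of many other members, among them psma1.L, psmb9.S and psme4.L, also rested on scan 2 alone. For them this setting repeats the difference within scan 2. Of the member probes 68.5% and 72.8% were marked on simazine 2 and control 1, against 42.6% and 44.0% of gene spots. The shares of members and of all probes in this setting thus rest on unlike sets of arrays. For psmb8.L, marked on simazine 3, the difference was 0.53.

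Genes that work with the proteasome likewise had no member past the threshold: 0 of 80 gene copies in 5 lists passed an adjusted p of 0.05 (limma). Under an unadjusted p of 0.05 were 2 of the 80, against 3.85% of all tested probes (limma). Over all named gene copies 59 of 8089 passed. The list of other subunits and regulators had 5 above and 7 below 0, with a median of -0.02. There ecpas.L, a scaffold of the complex, differed by 0.33 ± 0.27 (SE) and the ubiquitin receptor adrm1.L by -0.35 ± 0.52 (SE). Ubiquitin and its conjugating enzymes had 15 above and 11 below 0, with a median of 0.05. Of these xiap.L, a ubiquitin ligase and caspase inhibitor, differed by 0.76 ± 0.29 (SE) at an unadjusted p of 0.0465, and the ligase adaptor btrc.S by 0.59 ± 0.29 (SE). Shuttle factors and partners of p97, the ATPase that extracts proteins, had 10 above and 9 below 0, with a median of 0.08, faf2.S at 0.33 ± 0.28 (SE) and ubxn1.L at 0.32 ± 0.33 (SE).

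Among 6 gene copies that regulate proteasome genes, 3 were above and 3 below 0, with a median of -0.01. Here keap1.L, the adaptor that marks the transcription factor nfe2l2 for degradation, had -1.45, -1.31 and -1.41 in simazine samples against -0.18 and -0.37 in control samples. All simazine values were below both control values, a difference of -1.12 ± 0.27 (SE) with an unadjusted p of 0.00791 and an adjusted p of 0.503 (limma). It was -1.12 within scan 1 and -1.06 within scan 2. The factor nfe2l2 itself differed by 0.20 ± 0.32 (SE) for the .L copy and by -0.06 ± 0.45 (SE) for the .S copy. For nfe2l1.S, the factor that raises proteasome genes when proteasome activity falls in mammals, the difference was 0.01 ± 0.27 (SE). For ngly1.S, whose enzyme activates nfe2l1 in mammals, it was 0.53 ± 0.41 (SE).

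Genes of MHC class I antigen processing, the pathway fed by the immune-type subunits, had 9 above and 8 below 0, with a median of 0.05 over 17 gene copies. In RefSeq's table psmb8.L neighbours tap1.L and tap2.L, which code for the peptide transporter. They differed by 0.38 ± 0.40 (SE) and 0.27 ± 0.28 (SE). The light chain b2m.S had 3.17, 4.44 and 2.72 in simazine samples and 4.74 and 3.44 in control samples, a difference of -0.64 ± 0.67 (SE). The kinase gene jak1.S, of interferon signalling, differed by -0.33 ± 0.32 (SE).

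**Figure D5:**
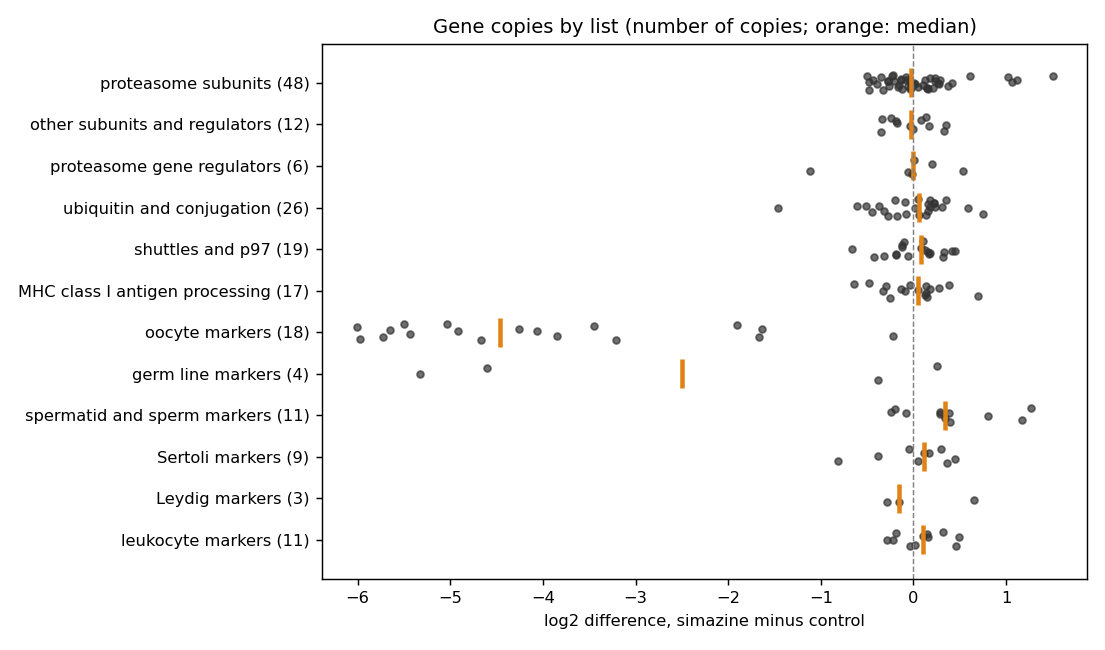
Log2 difference, simazine minus control (x axis), of each tested gene copy (points) in the proteasome, partner and marker lists (rows, number of copies in brackets), with list medians in orange. The proteasome and partner lists centre near 0, while the oocyte markers have a median of -4.46.

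The marker lists give the levels of the cell types that the samples could hold. All 18 tested oocyte markers were below 0, with a median of -4.46, among them pou5f3.3.L at -6.01 ± 0.30 (SE) and the oocyte linker histone h1-8.S at -5.44 ± 0.33 (SE), with adjusted p of 0.00982 and 0.0114 (limma). Of 4 tested germ line genes, with a median of -2.49, pgat.L fell at -5.32 ± 0.58 (SE), with an adjusted p of 0.0452 (limma). A further one, nanos1.L, was at -4.61 ± 0.64 (SE) with an adjusted p of 0.0923 (limma), and in both all simazine values were below both control values. Both pgat.L and nanos1.L were well above background on only 1 of the 3 simazine arrays, so the size of their differences is uncertain. The others, ddx4.L and dazl.L, were far brighter, and their groups overlapped. They differed by 0.25 ± 0.54 (SE) and -0.38 ± 0.60 (SE). The summed level of the germ line list was 122 to 257 in simazine samples and 116 to 253 in control samples. Spermatid and sperm genes had 8 of 11 above 0, with a median of 0.34 and none past the threshold, and zpbp2.L and ribc2.L were at 1.27 and 1.17. Leukocyte genes, the cell type known for immune-type subunits, had 7 of 11 above 0, with a median of 0.11. Their summed level was 37.8 to 47.5 in simazine samples and 34.4 to 42.8 in control samples. Of the leukocyte genes cd3g.S was at 0.50 ± 0.33 (SE) and cd74.S at 0.32 ± 0.38 (SE), while the other copy cd74.L was at 0.02 ± 0.28 (SE). The 4 below 0 reached -0.29, that of was.S. The medians of 9 Sertoli and 3 Leydig genes were 0.11 and -0.15. Among them dmrt1.S was at 0.37 ± 0.31 (SE), wt1.S at -0.82 ± 0.46 (SE), nr5a1.L at -0.29 ± 0.40 (SE) and cyp17a1.L at 0.66 ± 1.10 (SE). For cyp17a1.L the low values were those of scan 1 in both groups, and the difference was 0.11 within scan 1 and 0.32 within scan 2. The part of these cell types in the proteasome values was not tested.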

How the data were processed

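Total RNA was amplified to Cy3-labelled cRNA and hybridised to one-colour arrays, per the labels' protocols. The authors' deposited scanner tables hold linear intensity values from Agilent's Feature Extraction software, version 10.7.3.1. They are background-subtracted and include, per the file headers, a multiplicative trend correction on the arrays of scan 2 and none on those of scan 1. A second table by the authors gives log2 values of 27228 probes. Set against the scanner values, each of its columns was the logarithm of the processed signal shifted by 1 array-wide constant. Its medians were 0.958, 1.02 and 0.949 for simazine 1, 2 and 3 and 1.06 and 0.951 for control 1 and 2, the statistic that set each constant is unknown, and the table served as an alternative.

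Processed signals were set relative to each array's 75th percentile on the log2 scale. Control spots were left out, marked and saturated spots were kept, and spots of a probe were averaged. A spot was left out where the median deviation over 5 rows and 9 columns around it exceeded 0.5 on any array. Probes well above background on at least 2 arrays were tested by limma 3.58.1 under R 4.3.3 (two-sided, lmFit then eBayes, no covariate). Adjustment was by Benjamini-Hochberg across the tested probes, at a threshold of 0.05. The fit was tested on simulated data, where it missed all but some of the largest differences, so a lack of calls does not show a lack of change. Gene names came from RefSeq's table (10012 of 36331 accessions matched). No sequence is shown.

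Members, lists, filters and tests were chosen with earlier results of these data known. Named are members past the threshold, immune-type subunits and psme1 and psme2, the extremes of each of 7 classes, psmb6 and psmb7, copies whose probes disagree, and 2 genes per list, of which 1 is not reported here. Further members and listed genes, named as examples, were chosen after their values were seen. Alternatives covered marked spots, the position filter, the scan (as a block or alone), scaling, background correction (normexp with offset 50 on median signals, since mean signals were not used here), the filter on dim probes, array weights and each sample left out. The groups share no replicate numbers that pair samples.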

Additional observations from a re-analysis of the deposited data

How the results depend on the processing

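The count of proteasome probes past the threshold was 0 in all 20 tested alternatives (limma), with at most 5 under an unadjusted p of 0.05. This says little about stability, since in scan 2 alone and without control 1, control 2, simazine 1 or simazine 3 no probe of the array passed. The members' median difference lay between -0.23 and 0.26 over 22 alternatives, so its sign changed among them. These values were within the spread of the members' array medians inside the groups (SD 0.413) around the value reported. That spread includes the difference between scans, so lying within it does not show stability. Both ends of the median difference came from leaving out 1 sample: it was 0.26 without control 1, and -0.20 and -0.23 without control 2 and simazine 2. The count of partner genes past the threshold was also 0 with marked spots left out and with the scan as a block, the alternatives run for it. The count over all probes, 108, moved to 1 with marked spots left out, with or without the position filter, to 372 without that filter, to 258 with the scan as a block, to 0 in scan 2 alone (1234 at an unadjusted p under 0.05), to 17 with normexp and the 75th percentile and to 43 without the filter on dim probes. It ranged from 0 to 64 when a sample was left out, 64 without simazine 2 and 0 without any other sample, with 618 to 794 then under an unadjusted p of 0.05. The cause was not tested. Normexp with the 75th percentile shifted the median of all probes to 0.21. Of 431 values for the 22 named probes, 380 kept their sign, 51 changed it and 0 passed the threshold. Those of psmb8.L ran from 0.39 to 0.83 and those of probe 1 of psmd8.L from 0.92 to 2.08. No paired analysis was possible because the labels give the groups no shared replicate numbers. Of the 92 member probes, 91 were well above background on all arrays, and whether the lack of calls reflects the few arrays or small differences was not tested.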
